A study of Homo sapiens with 14 samples.

Results

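The CDK4 segment of chromosome 12 was examined in RH30, an alveolar rhabdomyosarcoma cell line that carries the PAX3-FOXO1 fusion gene, and in LHCN, an immortalised human myoblast line. Its members are all peaks of the 14 ATAC-seq peak lists that overlap hg19 chr12:56500000-59500000, a 3 Mb window chosen from these lists because RH30 peaks are unusually wide there. The window held 7450 of the 1971391 peaks in all lists, 6304 of them in the 10 RH30 lists and 1146 in the 4 LHCN lists. ATAC-seq cuts and tags accessible DNA with the transposase Tn5, and each list holds the stretches where insertions exceeded the background. RH30 received QC6352 at 200 nM, which inhibits histone demethylases of the KDM4 family, or 0.1% DMSO. A further set of RH30 cultures carried the hairpin shKDM4B-813 or shKDM4B-814, both against the demethylase gene KDM4B, or the control hairpin shCtrl, for 72 h after transduction. LHCN overexpressed PAX3-FOXO1 or carried an empty vector for 72 h. Each of the 7 groups held 2 libraries, whose labels do not say that they came from separate cultures, so p-values below cover the spread among these libraries, which may be technical. The assay measured neither KDM4B levels nor DNA copy number, and more copies of the DNA cannot be told apart from more accessible DNA per copy.

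CDK4 encodes the cyclin-dependent kinase that, with a D-type cyclin, phosphorylates the retinoblastoma protein and lets cells enter S phase. GLI1 encodes a transcription factor at the end of the Hedgehog pathway, and DDIT3 encodes CHOP, a transcription factor of the integrated stress response. This stretch of the long arm of chromosome 12 is known to be amplified in part of alveolar rhabdomyosarcomas and in RH30, and amplified DNA contributes more reads to any sequencing assay. In the RefSeq gene table of GRCh38.p14, GLI1 lies between INHBE and ARHGAP9, DDIT3 between MARS1 and MBD6, and CDK4 between TSPAN31 and MARCHF9. ARHGAP9 and MARS1 are the 2 named protein-coding genes between GLI1 and DDIT3, and 10 such genes, from MBD6 to TSPAN31, lie between DDIT3 and CDK4. All 34 genes looked up for the region were found in that table. The peak lists are in hg19, and no annotation of that build was used here. No peak is therefore assigned to a gene, and which genes the block described below holds rests on the description of the window, not on these data.

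The promoters of CDK4 and DDIT3 are shown as landmarks of the segment, as the 250 bases before the RefSeq start site, 5′ to 3′ along the gene. CDK4 is read from the minus strand of GRCh38 chr12:57752311-57752560 and DDIT3 from the minus strand of GRCh38 chr12:57520515-57520764, which cannot be set against the hg19 peaks. GLI1 was looked up as well. Capitals mark matches to the GC box (GGGCGG or its reverse complement CCGCCC), the CCAAT box (CCAAT or ATTGG) and the E-box CACGTG, searched on both strands with no match overlapping another.
CDK4: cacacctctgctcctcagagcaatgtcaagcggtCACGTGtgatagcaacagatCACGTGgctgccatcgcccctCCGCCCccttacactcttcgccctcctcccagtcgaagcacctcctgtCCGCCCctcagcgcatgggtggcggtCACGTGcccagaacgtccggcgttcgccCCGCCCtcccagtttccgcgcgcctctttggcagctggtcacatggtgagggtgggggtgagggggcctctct
DDIT3: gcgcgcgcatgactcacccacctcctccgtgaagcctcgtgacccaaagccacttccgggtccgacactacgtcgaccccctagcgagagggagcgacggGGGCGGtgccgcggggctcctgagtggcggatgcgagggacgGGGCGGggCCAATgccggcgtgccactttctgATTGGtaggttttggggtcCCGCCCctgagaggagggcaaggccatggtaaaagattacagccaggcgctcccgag
The CDK4 promoter held 3 GC boxes and 3 E-boxes and no CCAAT box, and the DDIT3 promoter held 3 GC boxes, 2 CCAAT boxes and no E-box. Among 27305 promoters of the same length, 42.3% held a GC box, 33.0% a CCAAT box and 6.49% this E-box. TATAAA, the TATA box, was found in 11.1% of promoters and in neither of these windows. G or C made up 65.6% of the CDK4 window and 67.2% of the DDIT3 window.

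RH30 peaks filled a block of about 1.58 Mb inside the window and were ordinary on either side of it. Taking peaks with gaps of at most 10 kb as 1 run, and the median over the 10 RH30 libraries, the block was chr12:57381278-58960031. It leaves a flank of 881 kb on the left and 540.0 kb on the right within the window. The run began between 57374845 and 57382133 in all 10 RH30 libraries. It ended between 58958709 and 58960772 in 9 of them, whereas in shKDM4B-814 replicate 1 a gap of 10562 bp ended the run at 58720097. In LHCN the longest run of peaks in the window was 73.0 to 81.5 kb. Because the window was chosen for its RH30 values, RH30 against LHCN is given here as a description and without a test.

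**Figure D1:**
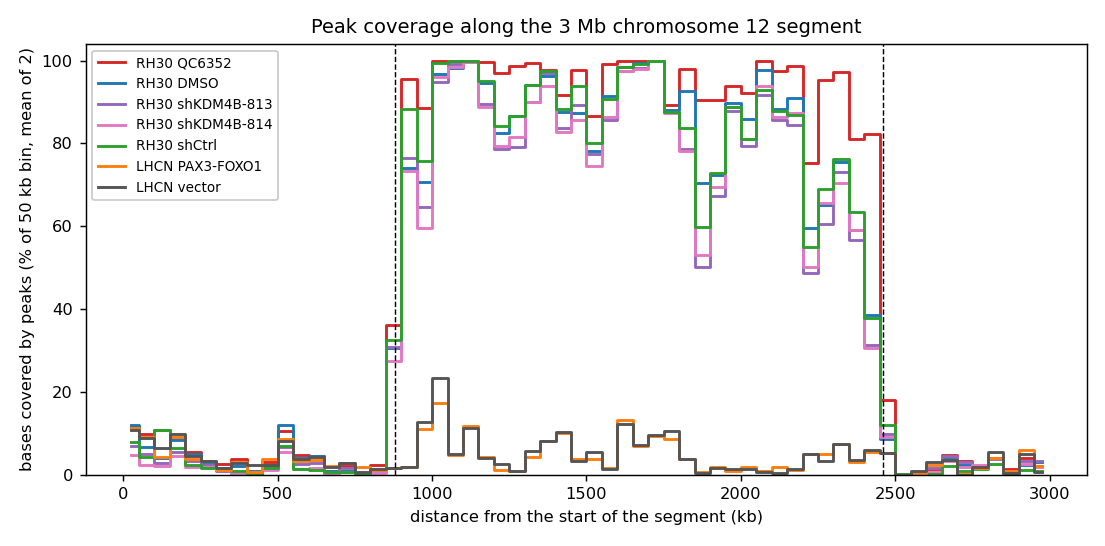
Share of each 50 kb bin covered by peaks (percent, mean of 2 libraries per group) against the distance from the start of the 3 Mb segment, with dashed lines at the block edges. All 5 RH30 groups rise at the left edge and drop at the right edge, QC6352 lies highest over most of the right part of the block, and both LHCN groups stay at or below 23.5%.

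The share of the block's bases under a peak was the plainest measure. It was 94.2% and 94.9% with QC6352, against 81.4% and 86.4% with DMSO. It was 78.5% and 81.4% with shKDM4B-813 and 78.9% and 80.9% with shKDM4B-814, against 84.1% and 84.3% with shCtrl. In LHCN it was 5.26% and 5.17% with PAX3-FOXO1, against 5.46% and 5.66% with vector. The RH30 libraries thus ranged between 78.5% and 94.9% and the LHCN libraries between 5.17% and 5.66%. In the left flank RH30 covered 1.66% to 5.56% and LHCN 4.17% to 4.48%, and in the right flank RH30 covered 0.894% to 2.75% and LHCN 2.30% to 2.41%. Outside the block the ranges of the 2 lines overlapped on the left, while on the right QC6352 replicate 2 and shKDM4B-813 replicate 1 lay above the LHCN range and the other 8 RH30 libraries below it.

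The number of peaks in the block did not follow the covered share. There were 234 and 178 peaks with QC6352, against 641 and 520 with DMSO. The hairpin lists held 745 and 652 peaks with shKDM4B-813 and 697 and 673 with shKDM4B-814, against 596 and 573 with shCtrl. LHCN had 171 and 175 with PAX3-FOXO1, against 184 and 188 with vector. The QC6352 lists were thus nearest to LHCN in number while furthest from it in covered share. The difference lay in width: the median peak in the block was 1486.5 and 1737 bp wide with QC6352, against 725 and 921.5 bp with DMSO. It was 668 and 714.5 bp with shKDM4B-813 and 738 and 740.0 bp with shKDM4B-814, against 842.5 and 821 bp with shCtrl. In LHCN the medians were 321 and 331 bp with PAX3-FOXO1, against 319 and 314 bp with vector. In the rest of the lists the median width was 306 to 348 bp in RH30 and 305 to 309 bp in LHCN, so RH30 peaks were wide within the block and not across the lists.

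**Figure D2:**
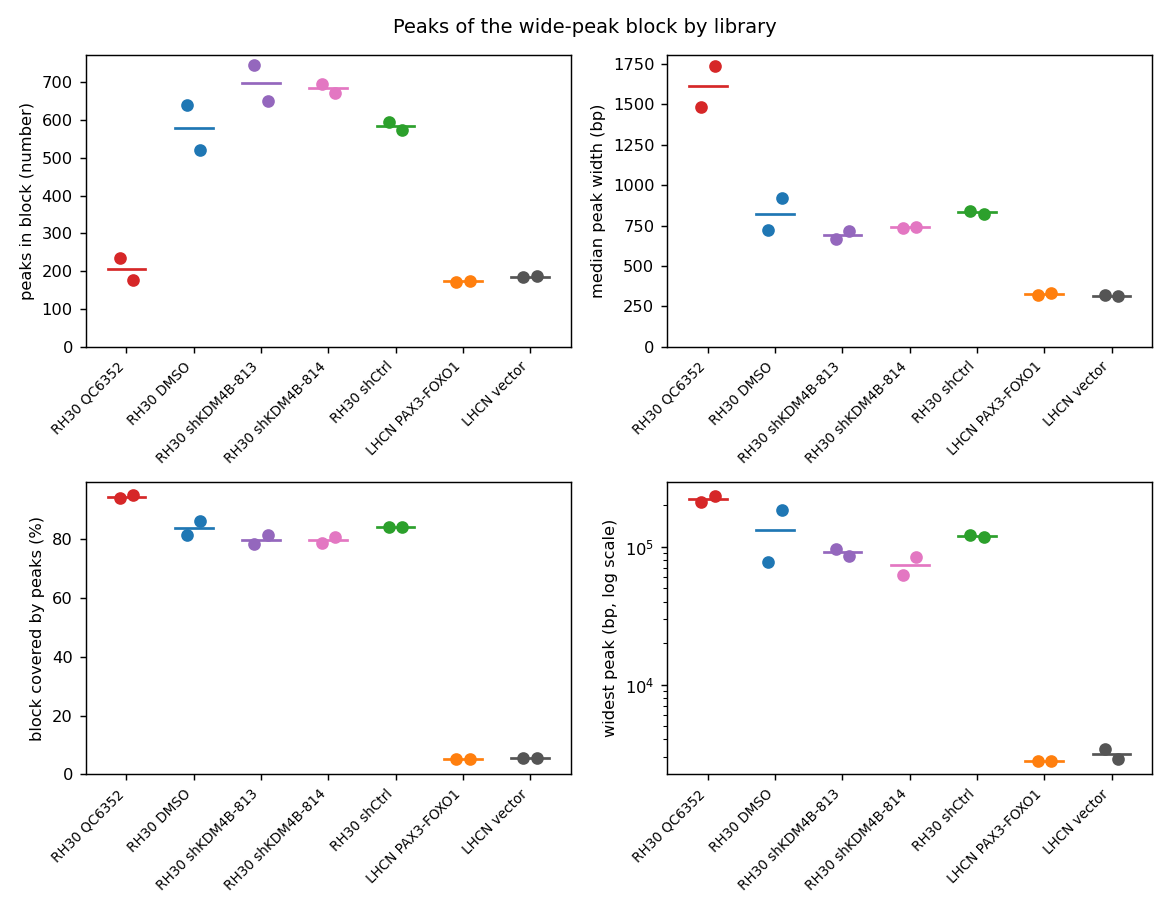
Number of peaks, median peak width (bp), share of bases covered (percent) and widest peak (bp, log axis) in the block, each point 1 library and each line the mean of 2. The QC6352 libraries have 234 and 178 peaks, the fewest in RH30, and the widest median peaks, 1486.5 and 1737 bp.

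The widest single peaks lay in the block too. They measured 210545 and 236083 bp with QC6352, against 77269 and 186079 bp with DMSO. With shKDM4B-813 they measured 97216 and 85837 bp and with shKDM4B-814 62206 and 84972 bp, against 121566 and 117636 bp with shCtrl. LHCN had none over 3378 bp in the block. Of the 84 peaks wider than 20 kb in the RH30 lists, 77 lay in the block. The other 7 were 6 in QC6352 replicate 2 and 1 in shCtrl replicate 2, and LHCN had 0 such peaks anywhere. A peak counted as wide when it passed the 99th percentile of width of its own list, and 17.5% to 43.6% of the RH30 peaks in the block were wide. In the flanks 2 RH30 lists held 1 wide peak each on the left and none held any on the right.

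Set against the rest of the genome, the segment was extreme in coverage for RH30 but not alone. Windows of 3 Mb placed every 500 kb gave 5955 to 5957 others per library. In 8 RH30 libraries none of them was covered more than the segment, while 2 windows in shCtrl replicate 1 and 4 in shCtrl replicate 2 were. The most covered other window in both was chr9:137500001-140500000, with 47.7% and 50.4%, against 45.1% and 45.5% of the CDK4 segment. In QC6352 replicate 2 that window, at 52.1%, all but equalled the segment. In LHCN 232 to 384 windows were covered more than the segment.

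Both outer edges of the block were steep, the left one more than the right. In the 20 kb inside the left edge RH30 peaks covered 72.5% to 96.7%, against 0% to 1.31% in the 20 kb outside it. Inside the right edge they covered 30.2% to 87.5%, against 0% to 2.85% outside. LHCN differed far less across either edge, with 6.28% to 7.20% inside the left edge, against 0% to 1.00% outside, and 3.09% to 3.81% inside the right edge, against 6.995% to 8.52% outside. The QC6352 libraries were the highest there: the bin from 58900001 to 58950000 was covered 82.4% on average with QC6352, against 38.6% with DMSO, and 31.4% with shKDM4B-813 and 30.5% with shKDM4B-814, against 37.8% with shCtrl. At the limits of the window coverage was low on both sides. In the 100 kb inside its start RH30 covered 3.40% to 12.6%, against 2.28% to 8.74% outside, and in the 100 kb inside its end 0.858% to 3.79%, against 0.229% to 1.34% outside.

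Another rule took runs of 50 kb bins covered above the 99th percentile of the bins that hold a peak in that library. Single bins below this limit were allowed inside a run. By this rule the block ran from 57350001 or 57400001 to 58950000 in 8 RH30 libraries and from 57400001 to 58900000 in both shCtrl libraries. The limit was 49.6% and 52.5% covered with shCtrl, against 17.0% and 26.3% with shKDM4B-813 and 15.3% and 15.5% with shKDM4B-814. The earlier end with shCtrl does not mean lower coverage there. The bin from 58900001 to 58950000, left out with shCtrl, was covered 37.8% on average with shCtrl, more than with either hairpin. In LHCN the same rule gave a single bin, 57500001 to 57550000. Within the block coverage was uneven along the DNA. RH30 covered 100% of the bin from 58200001 to 58250000 in every library, and 97.5% or more of both bins from 57550001 to 57650000. Lower stretches were the bin from 58350001 to 58400000, with 46.8% to 91.6%, and the bin from 58700001 to 58750000, with 46.3% to 76.5%. In each of these bins LHCN covered at most 13.3%.

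Peaks of the 10 RH30 lists covered the same bases to a large degree. All 10 lists covered 1069 kb, or 67.7%, of the block, and none covered 54.4 kb, or 3.45%. The uncovered bases formed 132 gaps, 14 of them longer than 1 kb, and 9 of these 14 held no LHCN peak either. The longest, chr12:58041046-58044867 with 3822 bp, was one of these.

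Inside the block the RH30 peaks stopped at a position shared by all libraries and resumed a median of 5262 bp further on. The last peak before this stop ended between 58289635 and 58289682 in all 10 libraries, a spread of under 50 bp, although the peaks that ended there ranged in width from 9447 bp in shCtrl replicate 1 to 233697 bp in QC6352 replicate 2. The next peak began between 58294911 and 58294964 in 9 libraries, and in shCtrl replicate 2 a peak of 200 bp intervened at 58290752. LHCN had peaks just there. A site at chr12:58289935-58290993 had a fold of 11.6 and 20.6 with PAX3-FOXO1, against 20.8 and 18.9 with vector, and it overlapped a peak in 1 of the 10 RH30 lists. A neighbour at chr12:58292182-58292417 had peaks in 0 RH30 lists and one at chr12:58292738-58293254 in 1. A shorter stop recurred at 58707565 to 58707606, where all 10 RH30 libraries ended a peak and resumed between 58709192 and 58709316. The LHCN site at chr12:58708298-58708833 in between, with a fold of 12.4 and 16.6 with PAX3-FOXO1, against 19.3 and 12.7 with vector, had a peak in 0 RH30 lists. These stops were picked out after their values were seen.

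**Figure D3:**
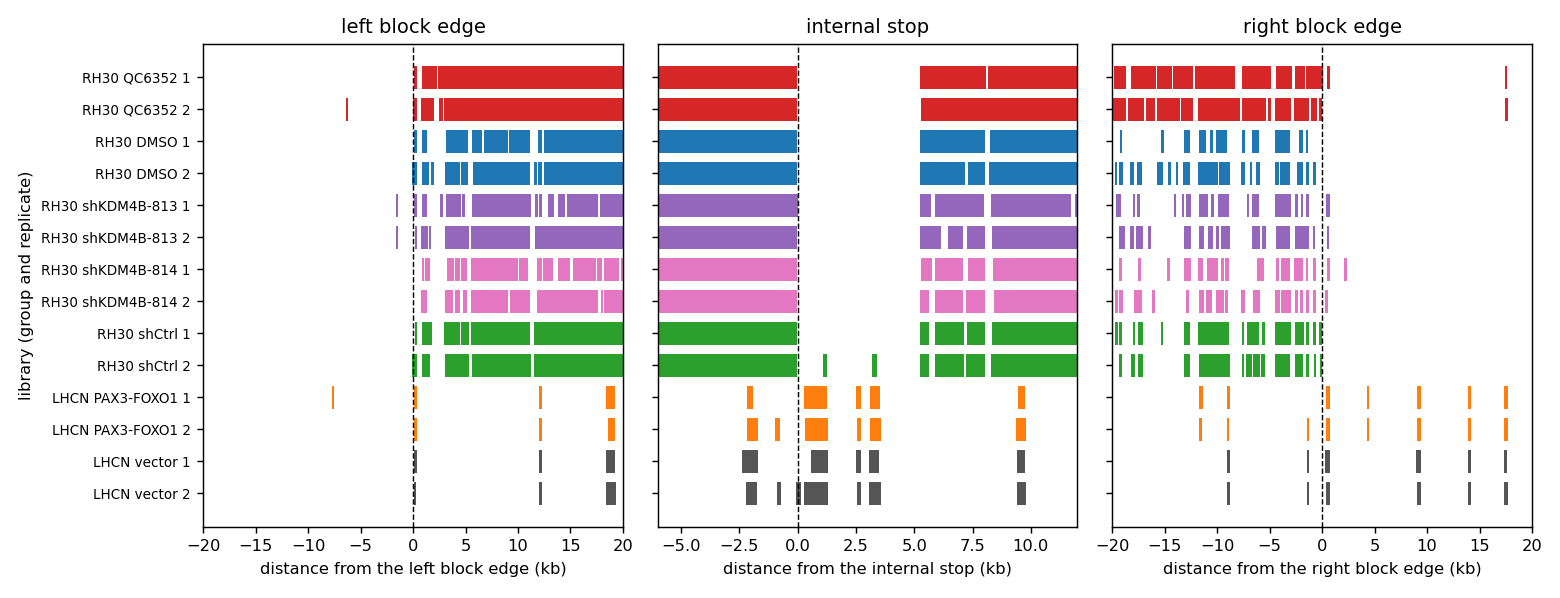
Peaks of each library (bars) within 20 kb of the left and right block edges and from 6 kb before to 12 kb after the internal stop, with the distance in kb on the x axis. RH30 peaks begin at the left edge and thin out toward the right edge, and at the internal stop all 10 RH30 libraries end a peak where LHCN has peaks.

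Sites open in LHCN were nearly all under RH30 peaks in the block. There were 123 sites with a peak in all 4 LHCN lists, and 118 to 121 of them overlapped an RH30 peak, depending on the library. In the flanks 38 to 57 of 77 such sites did, and in the rest of the genome 39.2% to 58.0% of 112558. With 78.5% to 94.9% of the block under RH30 peaks, most sites would overlap one wherever they lay. The overlap in the block is therefore not read as a property of LHCN sites. The share expected from coverage was not computed. Of the 123 sites, 118 overlapped a peak in all 10 RH30 lists and 2 in none. The overlap does not mean a peak of its own: an RH30 summit, the base of highest signal of a peak, lay in 35 to 67 of the 123 sites, fewest in QC6352 replicate 2 and most in shKDM4B-813 replicate 1. A single QC6352 peak spanned up to 27 sites in replicate 1 and 32 in replicate 2, against 10 and 20 with DMSO. The most in a single peak was 14 and 11 with shKDM4B-813 and 9 in each library with shKDM4B-814, against 17 in each with shCtrl. Conversely 78.1% to 90.6% of the RH30 peaks in the block held none of these sites.

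The 2 widest union regions, made by merging the peaks of all lists, spanned many peaks. The region chr12:57494504-57731581 had a median widest RH30 peak of 93349 bp, and chr12:58055954-58289829, which ends at the internal stop, one of 84959 bp. Next came chr12:57800149-57887077 with 45277 bp and chr12:57955441-58028342 with 31775 bp. All 4 had peaks in the 10 RH30 and 4 LHCN lists. By contrast chr12:57888493-57900693, with a median widest RH30 peak of 8111 bp, had peaks in 10 RH30 lists and in 0 LHCN lists. Of the 135 union regions of the block, 36 had a peak in all 14 lists, 41 in all 10 RH30 lists and no LHCN list, and 2 in all 4 LHCN lists and no RH30 list. Of the 225 in the flanks the same counts were 27, 3 and 13. The highest LHCN values in the window were mostly in the flanks: of the 5 regions with the highest LHCN median percentile of −log10 q, only chr12:57471569-57473049 lay in the block.

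Column 7, the authors' fold of a summit over background, was high in the block and kept the unit of the rest of the list. In each list every fold was a whole multiple of 1 step within 0.05 of a step, for 100% of the block's peaks and 99.9% in shKDM4B-814 replicate 2. Peaks of the block were thus divided by the same background as the other peaks of their list. The highest fold in the block was 248 and 192 with QC6352, against 418 and 404 with DMSO. It was 472 and 408 with shKDM4B-813 and 491 and 449 with shKDM4B-814, against 284 and 309 with shCtrl. LHCN reached 47.5 and 63.2 with PAX3-FOXO1, against 83.3 and 88.9 with vector. All 10 RH30 libraries lay above all 4 LHCN libraries, and QC6352 and shCtrl were the lowest RH30 groups. The 99th percentile of fold in the block was 144 and 124 with QC6352, against 192 and 192 with DMSO, and 216 and 175 with shKDM4B-813 and 169 and 152 with shKDM4B-814, against 118 and 145 with shCtrl. In the rest of the list the same percentile was 22.2 and 21.6 in the QC6352 lists, against 46.5 and 40.2 in the DMSO lists. The shKDM4B-813 lists had 47.8 and 36.1 and the shKDM4B-814 lists 47.1 and 41.7, against 26.4 and 27.5 in the shCtrl lists. QC6352 lay below DMSO, and each hairpin above shCtrl, in both the block and the rest of the list.

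The median fold in the block was less apart. It was 12.0 and 12.1 with QC6352, against 9.63 and 10.1 with DMSO, 9.32 and 10.2 with shKDM4B-813 and 9.66 and 10.3 with shKDM4B-814, against 11.1 and 11.0 with shCtrl, and 8.27 and 10.6 with PAX3-FOXO1, against 10.1 and 10.6 with vector in LHCN. The RH30 range of medians, 9.32 to 12.1, overlapped the LHCN range, 8.27 to 10.6. In the rest of the RH30 lists the median fold lay between 4.75 and 7.34, below the block in each library, while the highest folds there, 1046 to 6717, exceeded those of the block. Column 9, the −log10 q value, had medians in the block of 26.6 and 38.7 with QC6352, against 20.6 and 22.0 with DMSO, 16.8 and 19.2 with shKDM4B-813 and 18.2 and 18.7 with shKDM4B-814, against 23.3 and 23.1 with shCtrl, and 19.8 and 27.3 with PAX3-FOXO1, against 24.7 and 26.9 with vector. Within their own lists the median block peak stood at a percentile of −log10 q between 64.1 and 93.6 in RH30 and between 49.6 and 53.2 in LHCN.

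Summits that recurred at the same place, within a chain of 150 bp, in at least 8 of the 10 RH30 libraries numbered 249 in the window, 204 of them in the block. Of those 204, 41 lay in peaks of all 4 LHCN lists, 22 in some and 141 in none. Of the 45 in the flanks, 37 lay in peaks of all 4 LHCN lists. The median fold in RH30 was 58.0 for the 41 and 9.66 for the 141. Of the 20 strongest summits 18 had peaks in all 4 LHCN lists, so the highest RH30 summits lay at sites also open in myoblasts. The strongest, at chr12:58119954, had a fold of 404 in both DMSO libraries, 472 and 408 with shKDM4B-813 and 491 and 449 with shKDM4B-814, against 284 and 309 with shCtrl. In LHCN it had 32.5 and 41.8 with PAX3-FOXO1, against 53.8 and 50.2 with vector. In the QC6352 libraries this site was inside peaks of 210545 and 233697 bp whose summits lay elsewhere, so it has no QC6352 value of its own. Those peaks had a fold of 248 and 192 at their summits, and a summit is the highest base of its peak. The fold at this site was thus no higher than these with QC6352, below both DMSO libraries. The next, at chr12:58087800, had a fold of 192 in QC6352 replicate 2, against 418 and 402 with DMSO.

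**Figure D4:**
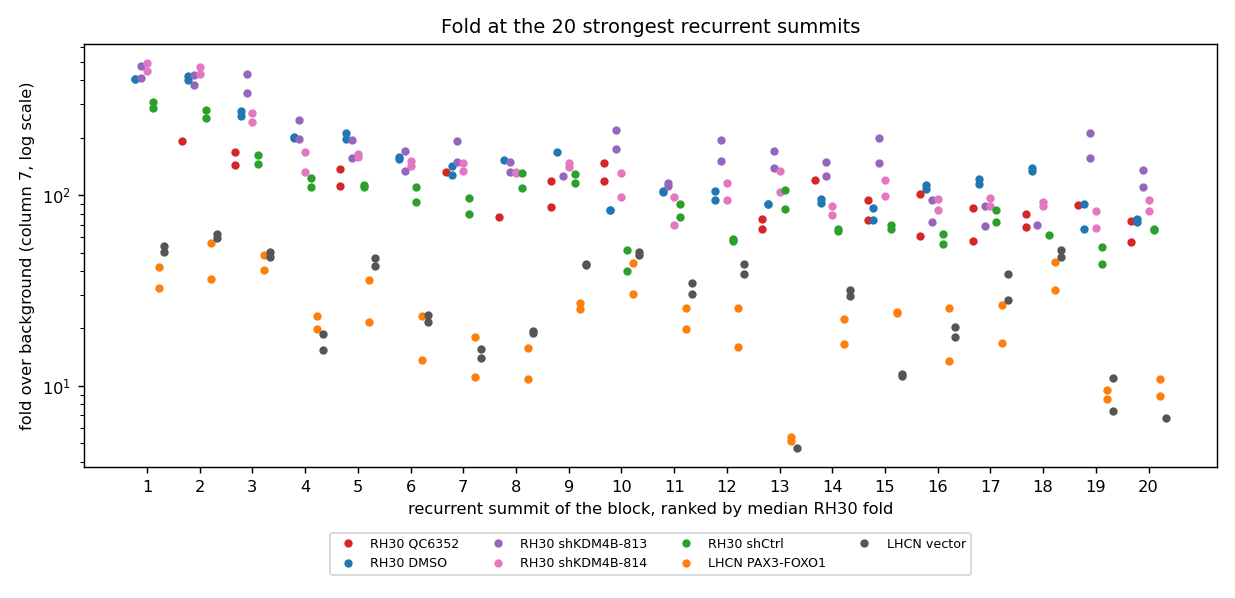
Fold over background (column 7, log axis) at the 20 strongest recurrent summits of the block, ranked by median RH30 fold, each point 1 library. RH30 points lie above all LHCN points of the same summit at every rank but 10, where shCtrl overlaps LHCN, and missing QC6352 points are sites inside a wider peak with its summit elsewhere.

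The summit of rank 3, at chr12:58335411, had a value in every library. Its fold was 168 and 144 with QC6352, against 276 and 260 with DMSO, 432 and 341 with shKDM4B-813 and 269 and 242 with shKDM4B-814, against 146 and 163 with shCtrl. QC6352 was lower than DMSO and both hairpins were higher than shCtrl, with no overlap. The summit at chr12:58704875, beside the shorter stop, differed in that all 3 perturbed groups were above their controls. Its fold was 147 and 118 with QC6352, against 83.0 and 83.1 with DMSO, 220 and 174 with shKDM4B-813 and 131 and 97.9 with shKDM4B-814, against 51.3 and 39.99 with shCtrl. LHCN had 30.2 and 44.0 with PAX3-FOXO1, against 48.8 and 50.5 with vector. Exact permutation of 2 libraries against 2 gives a two-sided p of 0.333 for each of these non-overlapping differences, the smallest it can give.

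QC6352 was compared with DMSO for the effect of the inhibitor. The block was covered to 94.6 ± 0.512% with QC6352 and 83.9 ± 3.53% with DMSO (SD, n = 2 each), with both QC6352 libraries above both DMSO libraries (exact permutation test, two-sided, p = 0.333, the smallest that 2 against 2 allows). The covered share of the whole segment was 5.96 percentage points higher, at 51.6 ± 0.708% with QC6352 and 45.6 ± 2.07% with DMSO (exact p = 0.333). The median covered share of the other 3 Mb windows did not run the same way, with 0.868% and 1.32% with QC6352, against 1.29% and 1.42% with DMSO. The most covered other window did, at 26.3% and 52.1% with QC6352, against 17.9% and 19.3% with DMSO. That window lay on chromosome 6 in DMSO replicate 1 and on chromosome 9 in the other libraries of this comparison. It is the highest window picked in each library and not the same one throughout. Whether the higher covered share with QC6352 was particular to the segment was not tested. The segment's share of all peaks in a list was 0.231 ± 0.0784% with QC6352 and 0.569 ± 0.154% with DMSO (exact p = 0.333). The median width over the whole segment, 888.5 ± 214 bp with QC6352 and 763 ± 102 bp with DMSO, overlapped between the groups (exact p = 0.667) and turned to a difference of −26.0 bp without QC6352 replicate 1.

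A merged region was called gained when both QC6352 lists, cut to equal length, had a peak there and neither DMSO list did, and lost in the reverse case. Of 237 regions in the segment 14 were gained, or 5.91%, beside 6.5% of all regions in these lists. Lost were 3, or 1.27%, beside 7.28% of all regions, and 0 of the 3 lay in the block. The 5 gained regions with the highest percentile were 280.0 to 784 bp wide, and 4 of them were in the flanks, led by chr12:59244497-59244939 with a fold of 9.46 and 10.9 with QC6352. Since merged regions of the block span many peaks, single bases of the deposited lists were counted as well. These lists held 111272 and 176899 peaks with QC6352, against 105136 and 129337 with DMSO. The base counts do not correct for list length. In the block 87.6 kb, or 5.76% of the bases covered by any of the 4 lists, were gained, beside 6.3% over the genome. Lost were 0.256 kb, or 0.0168%, beside 5.0% over the genome. The QC6352 lists covered 1487 and 1499 kb of the 1520 kb of the block under any of the 4 lists. Few bases could thus be called lost, and the lost share would lie under the background by that limit alone. The gained share was close to its background.

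At the recurrent summits 60 of the 204 could be compared between QC6352 and DMSO, since the others had no summit in at least 1 of the 4 libraries. Inside a wide QC6352 peak a site keeps a value only where it is the summit of that peak. The 60 are thus picked in part for a high QC6352 fold, which favours higher ratios. The values below hold for these 60 and do not describe the 204. Their median ratio of mean fold was 1.14. Both QC6352 libraries were above both DMSO libraries at 23 summits and below them at 12. Among the 20 summits with the highest mean fold over the 4 libraries 10 were lower and 4 higher in both, with a median ratio of 0.874, and the median ratio among the rest was 1.23. Ranked by DMSO fold alone, which favours low ratios at the top, 11 of 20 were lower and 3 higher, with a median ratio of 0.827. The QC6352 lists thus had fewer and wider peaks in the block, with 10 of the 20 tallest comparable summits lower, and the tallest peaks of the rest of the list were lower as well.

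**Figure D5:**
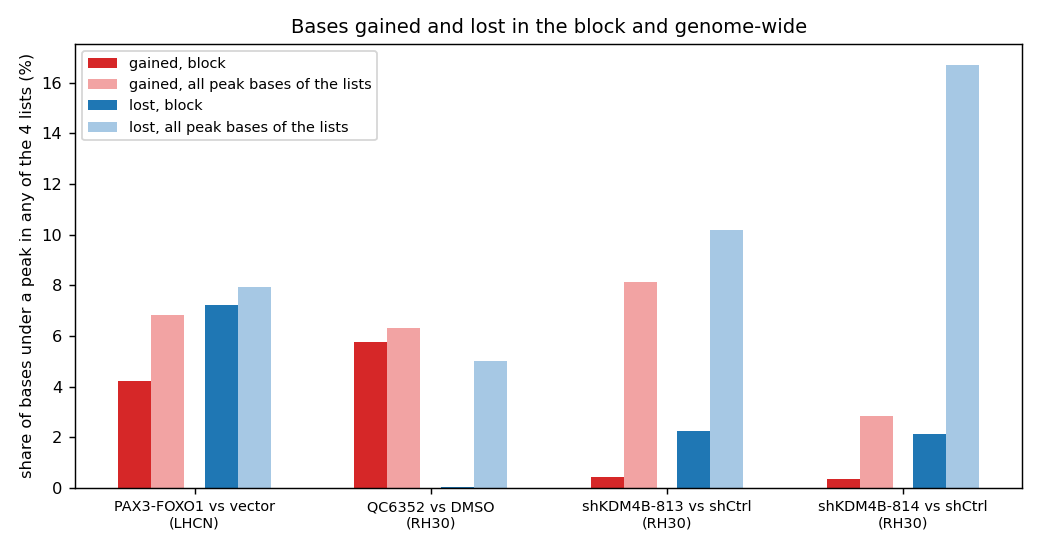
Share of peak bases gained and lost in the block (dark bars) and over all peak bases of the same lists (pale bars), in percent, for the 4 comparisons. In the block the lost share with QC6352 is 0.0168%, and both hairpins have 0.443% or less gained and 2.24% or less lost. RH30 peaks cover most of the block, which limits how many of its bases can be called.

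The hairpins against KDM4B were each compared with shCtrl and share those 2 control libraries. The block was covered to 79.9 ± 2.04% with shKDM4B-813 and 79.9 ± 1.42% with shKDM4B-814, against 84.2 ± 0.203% with shCtrl (SD, n = 2 each), with all 4 hairpin libraries below both controls (exact permutation test, two-sided, p = 0.333 for each). The segment's share of the list was 0.561 ± 0.0435% with shKDM4B-813 and 0.770 ± 0.0136% with shKDM4B-814, against 0.465 ± 0.0294% with shCtrl (exact p = 0.333 for each). With peaks of −log10 q of 10 or more alone, the shKDM4B-813 difference turned to −0.27 percentage points. In median width over the segment shKDM4B-813 had 618 ± 26.9 bp and shKDM4B-814 685 ± 2.47 bp, against 739 ± 28.6 bp with shCtrl (exact p = 0.333 for each). The covered share was thus lower than in its control with both hairpins and higher with QC6352, and the difference between the experiments, which have separate controls, was not tested. The median covered share of other windows was 1.53% and 1.22% with shKDM4B-813 and 0.995% and 0.859% with shKDM4B-814, against 0.683% and 0.731% with shCtrl, higher where the block was lower. The most covered other window, chr9:137500001-140500000, was lower with the hairpins, as the block was. It was covered 19.2% and 32.0% with shKDM4B-813 and 16.6% and 16.3% with shKDM4B-814, against 47.7% and 50.4% with shCtrl.

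With shKDM4B-813, 17 of 453 segment regions were gained, or 3.75%, beside 12.4% of all regions, and 21 were lost, or 4.64%, beside 7.98%. With shKDM4B-814, 10 of 450 were gained, or 2.22%, beside 6.73% of all regions, and 6 were lost, or 1.33%, beside 6.78%. All 4 shares lay below their background. Merged regions of the block span many peaks here too, and in the flanks alone the gained shares of both hairpins lay above it. The shKDM4B-813 gains took 3 of 364 block regions, or 0.824%, and 14 of 89 flank regions, or 15.7%. Its losses took 17 of 364 block regions, or 4.67%, and 4 of 89 flank regions, or 4.49%. The shKDM4B-814 gains took 4 of 376 block regions, or 1.06%, and 6 of 74 flank regions, or 8.11%. Losses with shKDM4B-814 took 3 of 376 block regions, or 0.798%, and 3 of 74 flank regions, or 4.05%. The flank region chr12:59202917-59203691 was gained with both hairpins, at a fold of 15.0 and 9.84 with shKDM4B-813 and 7.73 and 6.44 with shKDM4B-814. Another, chr12:56559037-56559518, was lost with both in the lists cut to equal length, although the full list of shKDM4B-813 replicate 2 held a peak of fold 4.92 there, against 6.69 and 9.54 with shCtrl. By bases of the deposited lists, 6.29 kb of the block or 0.443% were gained with shKDM4B-813, beside 8.14% over the genome, and 31.8 kb or 2.24% were lost, beside 10.2%. With shKDM4B-814, 4.78 kb or 0.337% were gained, beside 2.84%, and 30.2 kb or 2.13% were lost, beside 16.7%. Peaks of any of the 4 lists covered 1421 kb of the block for shKDM4B-813 and 1418 kb for shKDM4B-814. The shCtrl lists alone covered 1327 and 1332 kb, and the hairpin lists 1239 to 1285 kb. This limits how many bases of the block could be called gained or lost, so these low shares are not read as a result. The deposited lists differed in length, which these base counts do not correct for. They held 140342 and 138884 peaks with shKDM4B-813 and 99660 and 93488 with shKDM4B-814, against 135927 and 146395 with shCtrl.

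The strongest summits moved the other way from the coverage. With shKDM4B-813, 182 recurrent summits of the block could be compared, with a median ratio of mean fold of 0.974 over shCtrl. Among the 20 with the highest mean fold over the 4 libraries 19 were above both controls in both libraries and 0 were below, with a median ratio of 1.93, and of 0.948 among the rest. With shKDM4B-814, 185 summits had a median ratio of 0.954. Among its 20 highest 17 were above and 0 below, with a median ratio of 1.44, and of 0.927 among the rest. Ranked by shCtrl fold alone, 19 and 16 of the 20 highest were above, with median ratios of 1.74 for shKDM4B-813 and 1.39 for shKDM4B-814. The 99th percentile of fold was also higher with both hairpins in the rest of these lists, as given above.

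In LHCN, PAX3-FOXO1 was compared with vector to ask how expression of the fusion factor bears on the segment in myoblasts. The block was covered to 5.21 ± 0.0584% with PAX3-FOXO1 and 5.56 ± 0.143% with vector, with both PAX3-FOXO1 libraries lower (exact permutation test, two-sided, p = 0.333). The number of block peaks was 173 ± 2.83 with PAX3-FOXO1 and 186 ± 2.83 with vector (exact p = 0.333). Median width over the segment was 331 ± 14.1 bp with PAX3-FOXO1 and 325.5 ± 0.707 bp with vector (exact p = 1), and the difference turned to −4.5 bp without PAX3-FOXO1 replicate 2. Of 344 segment regions 25 were gained, or 7.27%, beside 8.13% of all regions, and 28 were lost, or 8.14%, beside 8.44%. By bases 4.87 kb of the block or 4.22% were gained, beside 6.81%, and 8.35 kb or 7.24% were lost, beside 7.92%. These shares were close to or below their background, and no PAX3-FOXO1 library showed wide peaks of the RH30 kind: the widest in its block measured 2778 and 2776 bp, against 3378 and 2888 bp with vector. Among the gained regions with the highest percentile, chr12:57918608-57919004 in the block had a fold of 8.52 and 14.6 with PAX3-FOXO1, and among the lost ones chr12:57542524-57543293 had 11.0 and 12.1 with vector.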

How the data were processed

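The 14 libraries were grouped by their titles and treatment labels. The submitters' processing notes name the build hg19 and the tools MACS2 2.1.1, SAMtools 1.3.1, Picard 1.65 and BWA 0.7.12-r1039. Settings and any shift of reads for Tn5 are not given in the sources used. The authors deposited 1 narrowPeak list per library, called per library, so a base outside every peak means only that no peak passed the caller's limit. Per peak the authors deposited a score, not used here, a fold over background, and −log10 p and −log10 q values. Read depth is unknown, since lists hold no read totals, and no interval that needs it is given.

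Peak number, width, covered bases, fold and −log10 q were computed per library with Python 3.11.15, pandas 2.3.3 and numpy 2.4.6, for the window, the block and its flanks. Groups of 2 were compared by exact permutation of libraries, smallest two-sided p 0.333. Gained and lost regions used lists cut to the shortest of their experiment by −log10 q: 170390 peaks in LHCN, 105136 in the compound and 93488 in the hairpin experiment. The code was tested on simulated lists with known answers. The window, members, lists and tests were chosen with earlier results of these data known. Regions were to be named by the widest RH30 peak (10), the highest RH30 (10) and LHCN (5) percentile and, per comparison and direction, the 5 called regions of highest percentile, some of which are printed. Runs of 10 kb, counts by base, recurrent summits and internal stops were chosen after seeing the data. Replicate numbers give 2 pairs per comparison, too few to show that they pair the libraries. Alternatives were deposited lists, −log10 q of 10 or more, 50% region cover, other bins and widths, and leaving out each library. Promoters are RefSeq sequences of GRCh38.p14, found for 2 of the 3 genes looked up.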

Additional observations from a re-analysis of the deposited data

How the results depend on the processing

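Over 32 results and 246 alternatives, 184 were classed as unchanged, 59 as moved and 3 turned. A difference counted as unchanged if it kept its sign, whatever its size. Only counts and positions could be classed as moved, when they were no longer near the reported value. With 2 libraries per group no alternative could reach a p below 0.333, so none gained or lost a call. The median width difference turned to −4.5 bp for PAX3-FOXO1 without PAX3-FOXO1 replicate 2 and to −26.0 bp for QC6352 without QC6352 replicate 1, and the share of the list for shKDM4B-813 to −0.27 percentage points at −log10 q of 10 or more. The cause was not tested. Counts of called regions were the least stable. Lost regions with QC6352 were 7 at −log10 q of 10 or more and 5 when peaks had to cover 50% of a region, where gained ones were 31. With shKDM4B-814 lost regions were 19 in the lists as deposited, 14 at −log10 q of 10 or more and 18 at 50% cover, and with shKDM4B-813 they were 41 at 50% cover. Block edges are medians over the RH30 libraries. The start was 57375001 with bins of 25 kb, 57400001 with bins of 100 kb and 57381278.5 by runs of peaks. The end was 59000000 with bins of 100 kb, and the last wide peak ended at 58862822.5 with a fixed width of 3000 bp.

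Leaving out 1 library in turn loosens the presence rule, since 1 list then stands for its group. Gained regions were 27 to 40 for PAX3-FOXO1, 18 to 35 for QC6352, 21 to 31 for shKDM4B-813 and 17 to 26 for shKDM4B-814. Lost regions were 36 to 46, 6 to 10, 30 to 49 and 8 to 23 in the same order. Bases gained in the block were 6.37 to 12.6, 103 to 190, 16.8 to 23.0 and 15.5 to 20.2 kb, and bases lost 11.6 to 14.6, 0.557 to 3.92, 54.7 to 94.5 and 52.7 to 88.4 kb. The covered share of the segment differed by −0.31 to −0.12, 4.50 to 7.42, −2.77 to −1.36 and −2.93 to −1.97 percentage points. The share of the list differed by −0.0092 to −0.0026, −0.45 to −0.23, 0.066 to 0.13 and 0.28 to 0.33 percentage points. Median width differed by −4.5 to 15.5, −26.0 to 277, −142 to −101 and −74.3 to −33.8 bp. The median over the RH30 libraries of the start of the first wide peak was 57386796 to 57386839. The median of the end of the last was 58883799 to 58925661. Single libraries were further apart. The first wide peak began at 56582418 in QC6352 replicate 1 and at 57387995 in DMSO replicate 1. The last ended at 58955189 and 58843564 in the same order.

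With the replicate number as a block, every mean difference is the same by construction (5.96 percentage points for QC6352 in the covered share) and the smallest p that sign flips of 2 pairs give is 0.5. Read depth is unknown and peaks are calls, so a base just under the caller's limit counts as uncovered.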
